A study of Mus musculus with 6 samples.

Results

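miR-204 and miR-211 are related microRNAs, each made from a hairpin inside an intron of a gene of the Trpm cation channel family. Their mature arms were followed in small RNA sequencing of mouse pancreatic islets, the small endocrine organs scattered through the pancreas that secrete insulin and other hormones, from 3 libraries of mice on the diet labelled HFD and 3 on the diet labelled NCD. The members were chosen by name: mmu-miR-204-5p, mmu-miR-204-3p, mmu-miR-211-5p and mmu-miR-211-3p, 4 arms in all. The deposited counts held 1011 rows, of which 958 had mouse miRNA names. Of the 4 arms, 3 had a row of counts, and miR-211-3p was not analysed here. The filter on low counts kept 406 miRNAs and 2 of the arms, miR-204-5p and miR-204-3p. Strain, age and length of feeding are not in the labels. They also do not say whether each library came from 1 animal or a pool, so p-values measure the spread between these libraries, which may be technical.

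A hairpin is cut into a short duplex, and usually 1 of its strands, the guide, is kept in Argonaute and pairs through its seed, bases 2 to 8, with messenger RNAs that it represses, while the other strand is mostly degraded. In beta cells miR-204 has been described as induced by TXNIP, a glucose-responsive protein, and as lowering insulin transcription through MafA. It has also been described as repressing the GLP-1 receptor and PERK, the endoplasmic reticulum stress kinase encoded by Eif2ak3. miR-211 is best known from melanocytes, where the pigment cell regulator MITF drives it with its host Trpm1, and as a target of the PERK branch of the stress response. The host of miR-204, Trpm3, encodes a steroid-activated cation channel found in beta cells.

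The mature arms are shown to compare their seeds, in capitals (RefSeq, GRCm38.p6, 5′ to 3′). The sequences of the 3 counted arms in the deposited table are the same.
miR-204-5p: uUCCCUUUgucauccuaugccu
miR-211-5p: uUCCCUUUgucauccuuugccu
miR-204-3p: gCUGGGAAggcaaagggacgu
miR-211-3p: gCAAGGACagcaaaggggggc

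The 5p arms carried the same seed and differed at 1 of 22 positions, A17U, counted from the 5′ end with the base of miR-204-5p first. The 3p arms had different seeds and differed at 7 of 21 positions. A single differing base lets reads pass from one 5p arm to the other, and the labels do not say how such reads were assigned. Among 1679 mature names in RefSeq, the other carrier of the 5p seed was miR-7670-3p. The longest stretch that any arm with a row shared with the reverse complement of another mouse miRNA in the table was 11 bases, between miR-204-3p and miR-7116-3p.

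The hairpins are shown because both arms of each come from them, with the arms in capitals. The arms are separated by 17 bases in Mir204 and by 15 in Mir211.
Mir204: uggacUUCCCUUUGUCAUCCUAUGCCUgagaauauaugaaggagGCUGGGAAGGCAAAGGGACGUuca
Mir211: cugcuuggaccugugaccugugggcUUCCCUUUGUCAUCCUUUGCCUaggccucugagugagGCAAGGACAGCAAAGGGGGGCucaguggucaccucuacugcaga

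Mir204 lies on chromosome 19 from 22750605 to 22750672 on the plus strand, the strand of Trpm3. All 18 Trpm3 transcripts that span it in GENCODE M21 (GRCm38) place it in an intron, which is intron 6 in 14 of them, from 22733172 to 22766633. Mir211 lies on chromosome 7 from 64205806 to 64205911 on the plus strand, the strand of Trpm1. All 12 spanning Trpm1 transcripts place it in an intron, again intron 6 in 8 of them, from 64204594 to 64208275. No other annotated gene overlaps either hairpin. The labels name no build for the counting, so these positions are those of the reference.

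The complement of the shared seed, AAAGGGA, was looked for on the sense strand of the 3′UTRs of the described targets, taking each gene's longest annotated one. Glp1r had 1 match in 4359 bases, at bases 2790 to 2796 after the stop codon, in capitals here.
Glp1r: gtccttgtgtgaccaAAAGGGAatacta
Mafa, with 1353 bases, and Eif2ak3, with 957, held 0 exact matches, which says only that these letters are not in that window. Among 21020 genes, 14.9% held at least 1 match, with a median length of 961 bases. Messenger RNA was not measured in these libraries.

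The libraries held between 7166712 and 11172255 counts. The islet endocrine list of 8 miRNAs, among them miR-375-3p and miR-7a-5p, was abundant in every library. It summed to 451638 to 553040 CPM with HFD and 265602 to 607896 CPM with NCD. CPM are read counts brought to a common library size, here with totals scaled by TMM, a method that corrects for a few abundant miRNAs filling a library. NCD 3 stood apart with a TMM factor of 1.73, against 0.84 to 0.995 in the other 5 libraries. Its endocrine sum was the lowest, but that factor lowers its CPM, so the low sum is not a separate sign. Results that rest on NCD 3 are also given without it.

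miR-204-5p, the strand with the described beta-cell targets, was a mid-abundance islet miRNA and was lower in HFD islets. Its level was 207, 166 and 208 CPM in HFD 1, 2 and 3, against 329, 254 and 321 CPM in NCD 1, 2 and 3. Every HFD library lay below every NCD library, as was so for 20 of the 406 tested miRNAs (4.93%). The lowest NCD level was 1.22 times the highest HFD level. The means were 194 ± 23.9 CPM with HFD and 301 ± 41.0 CPM with NCD (SD, n = 3 each). The fitted level was 1.56-fold lower in HFD islets, with a log2 fold change of -0.64 ± 0.30 (SE). It did not pass the threshold of 0.05, with an adjusted p of 0.58 over 406 miRNAs in the edgeR quasi-likelihood test and an unadjusted edgeR p of 0.0513. Under the 19 alternative fits of the whole table the unadjusted p ran from 0.0169 to 0.102 and was under 0.05 in 11, with none past the threshold after adjustment.

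**Figure D1:**
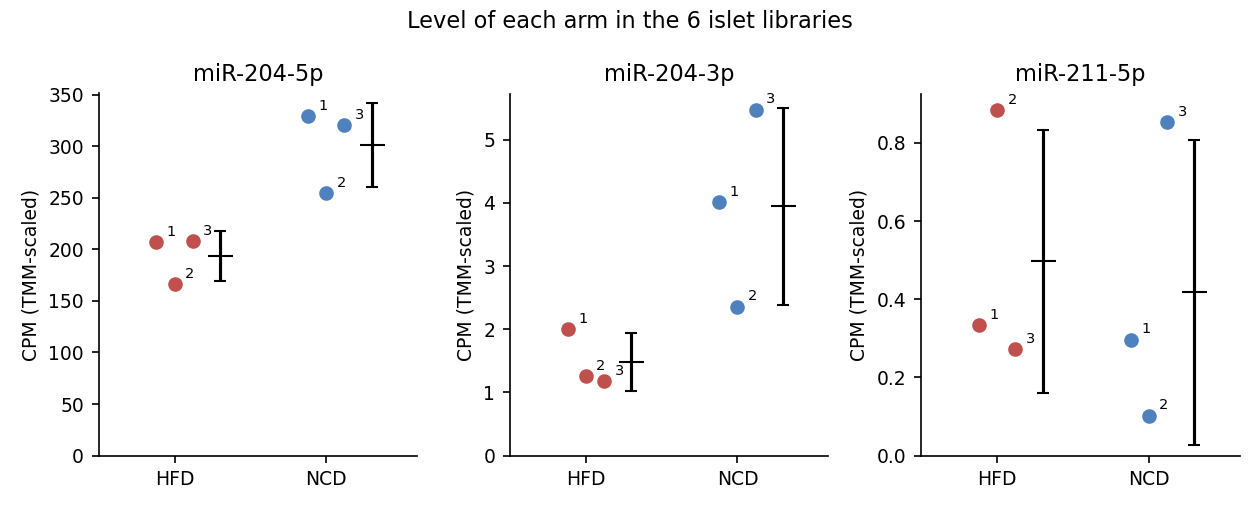
Level of miR-204-5p, miR-204-3p and miR-211-5p in CPM scaled by TMM (vertical axes from 0) in each HFD and NCD library. Points are libraries with their replicate number, and bars show the mean ± SD of 3 libraries. Both miR-204 arms are lower in each HFD than in each NCD library, as are 4.93% of all miRNAs tested. miR-211-5p stays under 1 CPM and overlaps.

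miR-204-3p, usually regarded as the passenger strand, was far scarcer and had the larger fold change. It was counted 18, 10 and 13 times in HFD 1, 2 and 3, against 27, 23 and 77 times in NCD 1, 2 and 3. As levels these were 2.0, 1.26 and 1.18 CPM in the HFD libraries, against 4.01, 2.36 and 5.47 CPM in the NCD libraries. Again the diets did not overlap. The means were 1.48 ± 0.454 CPM with HFD and 3.95 ± 1.56 CPM with NCD (SD, n = 3 each), a 2.66-fold lower fitted level in HFD islets. On the log2 scale this was -1.41 ± 0.58 (SE), and it did not pass either, with an edgeR adjusted p of 0.569 and an unadjusted edgeR p of 0.0314. Without NCD 3 the log2 fold change was -1.11 ± 0.67 (SE) for the 3p arm and -0.61 ± 0.31 (SE) for the 5p arm.

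Both tested arms were in the same direction, but they come from 1 hairpin and are not separate events. Among all miRNAs tested, 0 of 406, or 0%, passed with lower levels in HFD islets by edgeR, 15 (3.69%) did so at an unadjusted edgeR p under 0.05, the 3p arm among them, and DESeq2 and limma-voom also called 0 lower. With edgeR, 4 were called lower without the filter, 3 without NCD 2, and 2 without NCD 3 under either TMM or library totals, neither miR-204 arm among them. In either direction edgeR called 1 (0.246%). The share of tested miRNAs with every HFD library below every NCD library was 4.93%, or 20 of 406, and both miR-204 arms were among these. On library totals alone the share was 9.11%, again with both arms. By p, the 3p arm ranked 21 and the 5p arm 35 of 406.

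The size of the difference depended on the scaling of NCD 3. On library totals alone, miR-204-5p was at 174, 139 and 207 CPM in the HFD libraries, against 309, 222 and 555 CPM in the NCD libraries. Its log2 fold change was then -1.06 ± 0.42 (SE), with an edgeR adjusted p of 0.45, while the median of all miRNAs moved to -0.37 from 0.03 under TMM. Without NCD 3, library totals alone gave -0.62 ± 0.34 (SE). Relative to the islet endocrine list, there were 0.396, 0.30 and 0.46 miR-204-5p counts per 1000 endocrine counts in HFD 1, 2 and 3, against 0.541, 0.453 and 1.21 in NCD 1, 2 and 3. On that scale HFD 3 lay just above NCD 2, so the diets overlapped. The 3p arm ran from 0.00228 to 0.00383 per 1000 with HFD and from 0.00421 to 0.0206 per 1000 with NCD. Its nearest libraries, HFD 1 and NCD 2, held only 18 and 23 counts of it. How many of all tested miRNAs lack overlap on this scale was not counted. Exact two-sided permutation tests of these ratios gave p = 0.2 for the 5p and 0.1 for the 3p arm, where 0.1 is the smallest p that 3 against 3 allows. Their log2 differences were -0.81 and -1.55, and without NCD 3 they were -0.38 and -0.89. In bulk islets, fewer cells that hold miR-204 and less miR-204 per cell cannot be told apart.

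Marker miRNAs of other cell types mostly had negative fold changes as well. The 6 acinar miRNAs summed to 20.2, 139 and 206 CPM in HFD 1, 2 and 3, against 112, 174 and 418 CPM in NCD 1, 2 and 3, and all 3 tested had negative fold changes. In the same library order miR-204-5p was at 207, 166 and 208 CPM with HFD, against 329, 254 and 321 CPM with NCD. The 2 endothelial miRNAs summed to 300 to 434 CPM with HFD and 346 to 748 CPM with NCD, both with negative fold changes. The 5 leukocyte miRNAs summed to 6.18 to 13.3 CPM with HFD and 13.0 to 30.4 CPM with NCD, and 3 of 3 tested were negative. The 4 liver and muscle miRNAs summed to 48.3 to 130.4 CPM with HFD and 127 to 885 CPM with NCD, with NCD 1 the highest, and 3 of 3 tested were negative. The 4 stromal miRNAs (1325 to 4969 CPM with HFD and 1511 to 2972 CPM with NCD) had 3 of 4 negative. The 3 erythroid miRNAs (47.7 to 154.6 CPM with HFD and 39.6 to 143 CPM with NCD) had 2 of 2 tested negative. The 4 neural miRNAs (107 to 641 CPM with HFD and 313 to 422 CPM with NCD) had 3 of 3 tested positive, but miR-9-5p, which is also on the islet endocrine list, made up 103 to 628 CPM of those sums. Over these lists 0 members passed by edgeR, no marker was at 0 in every library, and their part in the miR-204 values was not tested.

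The balance of the miR-204 arms was the next comparison. The 3p arm made up 0.959%, 0.755% and 0.566% of miR-204 reads in HFD 1, 2 and 3, against 1.20%, 0.919% and 1.68% in NCD 1, 2 and 3. HFD 1 lay above NCD 2, so the diets overlapped, and NCD 3 was the highest. Exact Clopper-Pearson 95% intervals, for counting error only, ran from 0.57% to 1.51% in HFD 1 and from 0.584% to 1.38% in NCD 2, while NCD 3 ran from 1.33% to 2.09%. The 5p arm was thus counted 103, 132 and 176 times as often as the 3p arm in the HFD libraries, and 82.1, 108 and 58.5 times as often in the NCD libraries. Averaged on the log2 scale, the 5p to 3p ratio was 7.01 ± 0.38 with HFD and 6.31 ± 0.43 with NCD (SD, n = 3 each), a difference of 0.70. The exact permutation test, two-sided, put it at p = 0.2, and without NCD 3 it was 0.48.

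**Figure D2:**
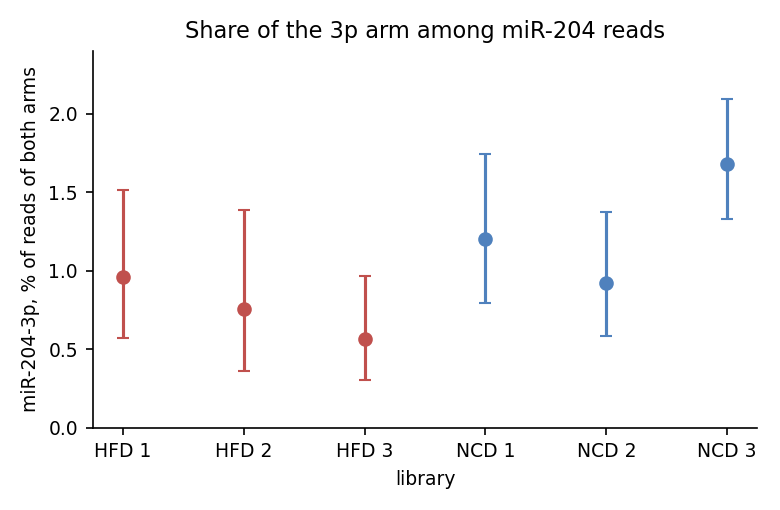
Share of miR-204-3p among the reads of both miR-204 arms, in percent, in each library (HFD red, NCD blue). Bars are exact 95% binomial intervals, and those of HFD 1, HFD 2 and NCD 2 overlap widely, while NCD 3 is the highest at 1.68%.

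miR-211-5p, the melanocyte-linked relative with the same seed, was near the limit of detection. It had 3, 7 and 3 counts in HFD 1, 2 and 3, against 2, 1 and 12 counts in NCD 1, 2 and 3. These were 0.334, 0.884 and 0.273 CPM in the HFD libraries, against 0.297, 0.102 and 0.853 CPM in the NCD libraries, where a count of 0 would allow up to 0.213 to 0.445 CPM (3 counts in a library). The diets overlapped, with the highest count in NCD 3 and the lowest in NCD 2. A mean of 4.67 counts kept it below the filter, so it had no test in the main comparison, and a diet difference was not detectable at this depth. miR-211-5p made up 0.238% of the reads of both 5p arms in HFD islets (13 of 5470, exact 95% interval 0.127% to 0.406%) and 0.163% in NCD islets (15 of 9219, 0.0911% to 0.268%). These intervals cover counting error only and pool libraries that differed, with 0.53% in HFD 2 the highest and 0.0403% in NCD 2 the lowest. Each share rested on 1 library, being 0.145% without HFD 2 (6 of 4148) and 0.0638% without NCD 3 (3 of 4699). With 1 base between the arms, some of these 28 reads may belong to miR-204-5p, which was not tested.

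Reads with the shared 5p seed were almost all miR-204-5p. It gave 14661 of 14715 such counts over the 6 libraries, or 99.6%, and between 99.3% and 99.8% in each library. miR-7670-3p gave 26 counts in all. In order of level, miR-204-5p stood 91.1-fold above miR-204-3p by mean CPM, and miR-204-3p stood 5.94-fold above miR-211-5p. These gaps are between different miRNAs and are less firm than those between diets, since ligation favours some miRNA ends. Within libraries miR-204-5p ranked 77, 86 and 76 in HFD 1, 2 and 3, against 65, 73 and 58 in NCD 1, 2 and 3. miR-204-3p ranked 334 to 386 in HFD and 281 to 321 in NCD libraries.

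By mean level miR-204-5p ranked 75 of 406, between miR-30e-3p and miR-140-3p. miR-30e-3p averaged 273 ± 44.9 CPM with HFD and 243 ± 96.2 CPM with NCD, and miR-140-3p averaged 244 ± 59.2 CPM with HFD and 228 ± 35.1 CPM with NCD (SD, n = 3 each). In NCD islets both lay below miR-204-5p, with overlapping mean ± SD ranges. In HFD islets both lay above it, miR-140-3p with an overlapping range and miR-30e-3p without.

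The miRNAs tied to TXNIP in beta cells, a list that includes both miR-204 arms, were split in direction. Of the 9 tested miRNAs on that list, 0 passed in either direction, 5 had positive and 4 negative fold changes, and the median log2 fold change was 0.27, against 0.03 over all 406. miR-200b-3p, of the epithelial miR-200 family that TXNIP has been described to induce, averaged 11367 ± 1592 CPM with HFD and 9364 ± 2083 CPM with NCD. miR-200a-3p averaged 11661 ± 1709 CPM with HFD and 6999 ± 1788 CPM with NCD, with a log2 fold change of 0.74 ± 0.31 (SE) that did not pass (edgeR adjusted p = 0.569). Each HFD library of miR-200a-3p, at 9723 CPM or more, lay above each NCD library, at 9037 CPM or less. The share of all tested miRNAs separated in that direction is not given here, so this is a description only. miR-200c-3p had a log2 fold change of -0.34 ± 0.33 and miR-429-3p of 0.27 ± 0.33 (SE). The remaining negative value was that of miR-17-5p, described as repressing TXNIP, with -1.36 ± 0.69 (SE) at 1.25 ± 0.641 CPM with HFD and 3.24 ± 1.89 CPM with NCD. miR-17-5p was named after its values were seen.

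**Figure D3:**
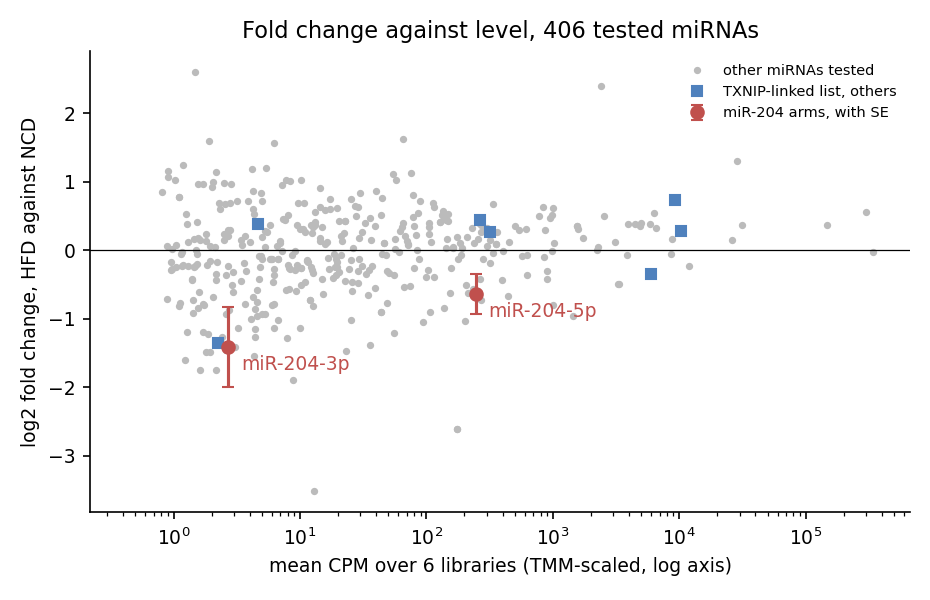
Log2 fold change of HFD against NCD (vertical) against mean CPM over 6 libraries (horizontal, log axis) for the 406 tested miRNAs, with the miR-204 arms (red, bars are SE) and the other TXNIP-linked miRNAs (blue squares) marked. miR-204-5p lies at -0.64 and miR-204-3p at -1.41, while 5 of the 7 other listed miRNAs lie above 0.

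miRNAs linked to insulin expression were near or above 0. Of 9 tested, 0 passed, 7 were positive and 2 negative, and the median log2 fold change was 0.17. miR-375-3p, which restrains insulin secretion, had -0.02 ± 0.42, miR-148a-3p 0.56 ± 0.38, miR-7a-5p 0.37 ± 0.36 and miR-26a-5p 0.17 ± 0.31 (SE). On the list linked to the unfolded protein response, which includes miR-204-5p itself, 6 of 8 were tested, 0 passed, and 3 were positive and 3 negative with a median of -0.32. miR-125b-5p had 205 ± 49.0 CPM with HFD and 318 ± 55.9 CPM with NCD, which is -0.64 ± 0.31 (SE) as a log2 fold change. miR-30c-2-3p and miR-96-5p had log2 fold changes of 0.0019 ± 0.32 and 0.37 ± 0.42 (SE).

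The miRNAs whose levels over the 6 libraries most resembled those of miR-204-5p were let-7d-3p, miR-383-5p, miR-125a-5p, let-7b-5p and miR-328-3p. Their Pearson correlations of log2 CPM were 0.966, 0.916, 0.88, 0.845 and 0.812, the highest of 238 miRNAs with a mean of at least 10 CPM. These are descriptions over 6 libraries that share the diet difference and the scaling. let-7d-3p, the closest, was at 39.4, 33.7 and 35.3 CPM in HFD 1, 2 and 3, against 73.9, 46.6 and 65.3 CPM in NCD 1, 2 and 3. miR-383-5p was at 63.5, 62.1 and 57.6 CPM in the HFD libraries, against 96.0, 80.3 and 87.5 CPM in the NCD libraries. In both, as in miR-204-5p, NCD 1 was the highest and NCD 2 the lowest NCD library.

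miR-204-3p correlated with miR-204-5p at 0.923 over the 6 libraries, which would place it behind let-7d-3p. From the side of miR-204-3p, let-7d-3p (0.946), miR-204-5p, miR-383-5p (0.912), miR-485-3p (0.903) and miR-328-3p (0.866) were the closest. Of the 6 other miRNAs named for either arm, 0 passed by edgeR, and their log2 fold changes ran from -1.21 for miR-328-3p to -0.30 for let-7b-5p.

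**Figure D4:**
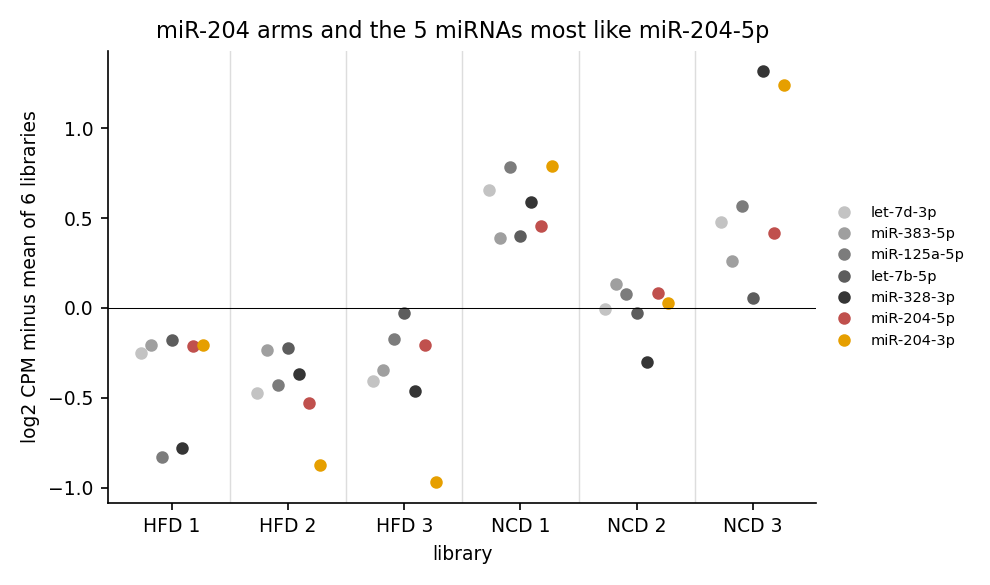
Log2 CPM of miR-204-5p, miR-204-3p and the 5 miRNAs most like miR-204-5p, each minus its mean over the 6 libraries (vertical), in each HFD and NCD library (horizontal). Points lie below 0 in the HFD libraries and highest in NCD 1 or NCD 3.

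**Figure D5:**
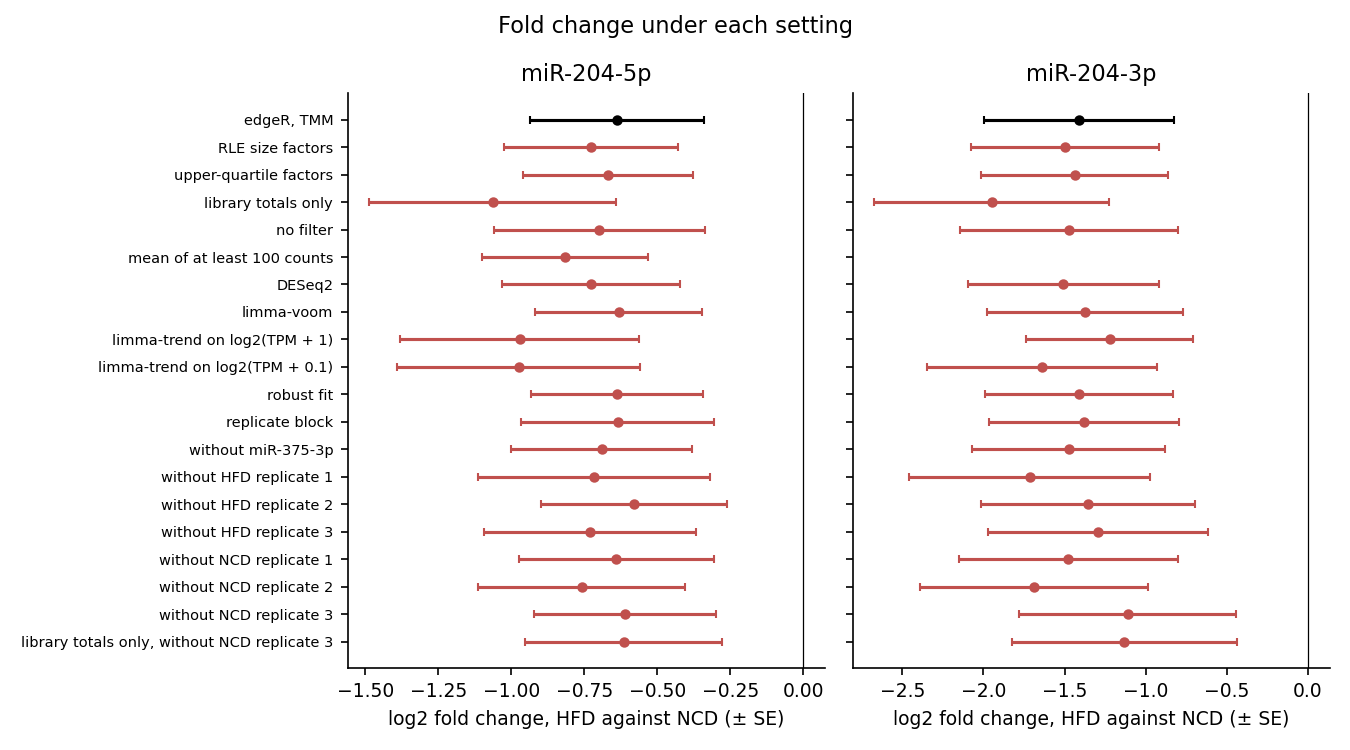
Log2 fold change of HFD against NCD (horizontal, bars are SE) of miR-204-5p and miR-204-3p under each fit of the whole table (vertical). The ratios to endocrine counts are not shown. miR-204-5p runs from -1.06 to -0.58 and miR-204-3p from -1.95 to -1.11, all below 0, and library totals alone give the lowest value of both.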

How the data were processed

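Total RNA of islets was isolated on columns and made into libraries with the NEBNext small RNA kit, per the labels' protocols. The authors deposited raw read counts per mature miRNA and TPM values, per the file headers. TPM equalled CPM on the raw column total, to within a relative difference of 4.61e-09. The labels name no aligner, counting tool, build or miRNA release. Columns retain short RNA incompletely, and libraries without molecular identifiers count reads, not molecules.

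Counts were filtered (filterByExpr, minimum count 10), scaled by TMM and tested with the edgeR 4.0.16 quasi-likelihood test (R 4.3.3), with diet as the only term, over the 3 HFD and 3 NCD libraries. Fold changes are HFD against NCD. The standard error is the log2 fold change divided by the root of the F statistic. Benjamini-Hochberg adjustment ran over 406 miRNAs, at a threshold of 0.05. CPM totals are those of the filtered rows. Arm ratios used a prior count of 0.5 and an exact permutation test (scipy 1.17.1), for pairs with a mean of at least 5 counts per row. Libraries of 1 diet differed beyond sampling noise, and each was counted as 1 sample. That difference does not tell separate animals from separate preparations of 1 pool. The steps were tested on simulated data. Alternatives used DESeq2 1.42.0, limma 3.58.1, other scalings and filters, a replicate block and each library left out. Named miRNAs were the members, the 5 most like each tested arm by Pearson correlation, and up to 4 abundant members of each list. The members and lists were chosen with earlier results of these data known.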

Additional observations from a re-analysis of the deposited data

How the results depend on the processing

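miR-204-5p kept a negative log2 fold change and an adjusted p above 0.05 under all 19 alternative fits of the whole table, from -1.06 to -0.58, and miR-204-3p under all 18, from -1.95 to -1.11. The ratios to endocrine counts were negative too, but their exact permutation test cannot go below 0.1 and says nothing of the threshold. Adjusted p ran from 0.341 to 0.957 for the 5p arm and from 0.282 to 0.957 for the 3p arm. Without 1 library the values ran from -0.76 to -0.58 for the 5p and from -1.71 to -1.11 for the 3p arm. A mean of at least 100 counts removed the 3p arm. Library totals without NCD 3 and counts per endocrine miRNA, with and without NCD 3, were chosen after the data were seen. Without the filter miR-211-5p had a log2 fold change of 0.10 ± 1.33 (SE, edgeR adjusted p = 0.986), and its other alternatives, like those of miR-211-3p and the ratios with miR-211, were not run. The unadjusted p of the 3p arm ran from 0.0105 to 0.12 and was under 0.05 in 13 of the 18. The difference in arm ratio ran from 0.48 to 0.91 without 1 library.

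The count of miRNAs called over the whole table was 1, and none of the calls was a miR-204 or miR-211 arm under any alternative. It was 0 with library totals alone and with limma-trend at a pseudocount of 1 or of 0.1 TPM, 6 without a filter, 3 with DESeq2 and 3 with library totals without NCD 3. Without 1 library it ran from 0 to 4. The cause was not tested.

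Same-numbered libraries deviated from their diet means with correlations of 0.14, -0.24 and 0.31, not each above 0.1, so numbers were not taken as pairs. With the replicate block, the log2 fold changes were -0.64 (edgeR adjusted p = 0.557) and -1.38 (0.501), and the count of calls was 1. The arm ratio difference stayed at 0.70 (p = 0.25, exact sign-flip test). With so few pairs that test cannot go below 0.25. Depth limits miR-211-5p and the 3p arm most, at 28 and 168 counts in all.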
